A study of Homo sapiens with 6 samples.

Results

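The ephrin, semaphorin, SLIT and netrin systems are the classical guidance cues of growing axons and migrating cells, and their receptors are the EPH kinases, plexins, ROBO proteins, DCC and the UNC5 proteins. Their genes were taken from the count table by symbol: EPHA or EPHB with a number, EFNA or EFNB with a number, SEMA with a class number and a letter, PLXNA to PLXND, ROBO, SLIT and NTN with a number, UNC5 with a letter, and DCC. This rule found 67 genes among 58735 rows, and 12 further symbols that begin alike (antisense transcripts, a pseudogene, an intronic transcript and UNC5CL) were left out. Of the 67 genes, 50 had enough reads to be tested, among 15935 genes tested in all.

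The study asked what the kinase TAK1, encoded by MAP3K7, does in rhabdomyosarcoma, a soft tissue sarcoma whose cells carry features of skeletal muscle. RD, an established cell line of embryonal rhabdomyosarcoma (ERMS), received lentiviral particles carrying either a scrambled shRNA (control, n = 3) or a TAK1 shRNA (n = 3), and poly(A) RNA was sequenced. Both groups therefore share the cell line and the viral vector. The study used a single TAK1 construct, its shRNA #1, for this experiment, so an effect of lower TAK1 and an effect of that construct cannot be told apart. The labels do not say that the samples of a group came from separate cultures, so p-values measure the spread between these samples, which may be technical, although the study speaks of triplicates.

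The 6 libraries held between 28839898 and 34469323 counts. MAP3K7 fell in the cells labelled as knockdown, from 77.9, 76.5 and 77.6 CPM (counts scaled to the TMM-normalized size of the library) to 30.5, 33.6 and 29.9 CPM (log2 fold change -1.30, SE 0.062, adjusted p = 4.45e-14, edgeR). Of 19 skeletal muscle markers 17 were tested, MYF5 was at 0 in every library, and their summed level was 3738 to 3757 CPM in control and 3946 to 4121 CPM in knockdown cells. Markers of other cells were scarcer. Of 12 neuronal markers 6 were tested (77.1 to 79.9 CPM in sum against 87.5 to 88.4 CPM, mostly INA, with ELAVL4 at 0), and of 11 endothelial markers 5 were tested (49.8 to 53.7 CPM against 70.9 to 81.3 CPM, mostly EGFL7, with CDH5, ERG and KDR at 0). None of 10 epithelial markers passed the filter (0.528 to 0.876 CPM in control and 0.205 to 0.848 CPM in knockdown cells, with CDH1, KRT14 and OVOL1 at 0). The part of the shifts in the muscle, neuronal and endothelial sums in the results given here was not tested.

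Ephrins are held on the cell surface, by a lipid anchor (ephrin-A) or a transmembrane segment (ephrin-B), and bind EPH receptor tyrosine kinases on the neighbouring cell, with signals passing into both cells. Class 3 semaphorins are secreted and act through neuropilins paired with plexins, while most other vertebrate semaphorins stay at the membrane and bind plexins directly. SLIT proteins repel cells through ROBO receptors, and netrins attract through DCC or neogenin and repel through UNC5 receptors. All of these systems act on the cytoskeleton. In muscle they are best known for steering migrating precursors and for shaping contacts between motor nerves and muscle fibres.

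In TAK1 knockdown cells 10 guidance genes were higher and 6 were lower than in control cells, called where the adjusted p was below 0.05 and the log2 fold change reached 0.25 in either direction. The higher genes were SEMA3B, SEMA3C, SEMA3D, SEMA4B, SEMA4G, SEMA6B, SEMA6C, PLXNB1, EPHB3 and NTN3. The lower genes were SEMA3A, SEMA7A, EPHA2, EPHB4, ROBO1 and NTN1. The 10 higher genes are 20% of the guidance genes tested, where 11.8% of all tested genes were higher, and the 6 lower genes are 12%, where 11.3% of all tested genes were lower. Scaling by library size alone raised the higher genes among all calls from 51.0% to 62.9%. With adjusted p alone, 19 guidance genes (38%) passed, beside 33.3% of all tested genes. The groups did not overlap in 21 of the 50 genes (42%), beside 43.9% of all tested genes. They did not overlap in any of the 16 called genes, but the calls rest on the same values, so this adds no support. The share over all called genes was not computed. The median log2 fold change was -0.015 over the guidance genes and 0.018 over all tested genes, and the median absolute value was 0.23 against 0.19. Sequencing bulk cultures cannot tell fewer cells of a type from less RNA per cell.

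Most calls fell on semaphorins, which were 17 of the 50 genes tested and gave 9 of the 16 called genes and 7 of the 10 higher ones. Of 17 semaphorins tested 7 were higher (41.2%) and 2 lower (11.8%), beside 11.8% and 11.3% of all tested genes. Among 7 EPH receptors tested 1 was higher (14.3%) and 2 were lower (28.6%), and none of 7 ephrins tested was called. Among 8 plexins tested 1 was higher (12.5%), near the share of all tested genes. Of 2 ROBO genes tested 1 was lower. The 4 netrins gave 1 call in each direction, and neither SLIT1 nor the 4 UNC5 genes tested gave one.

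**Figure D1:**
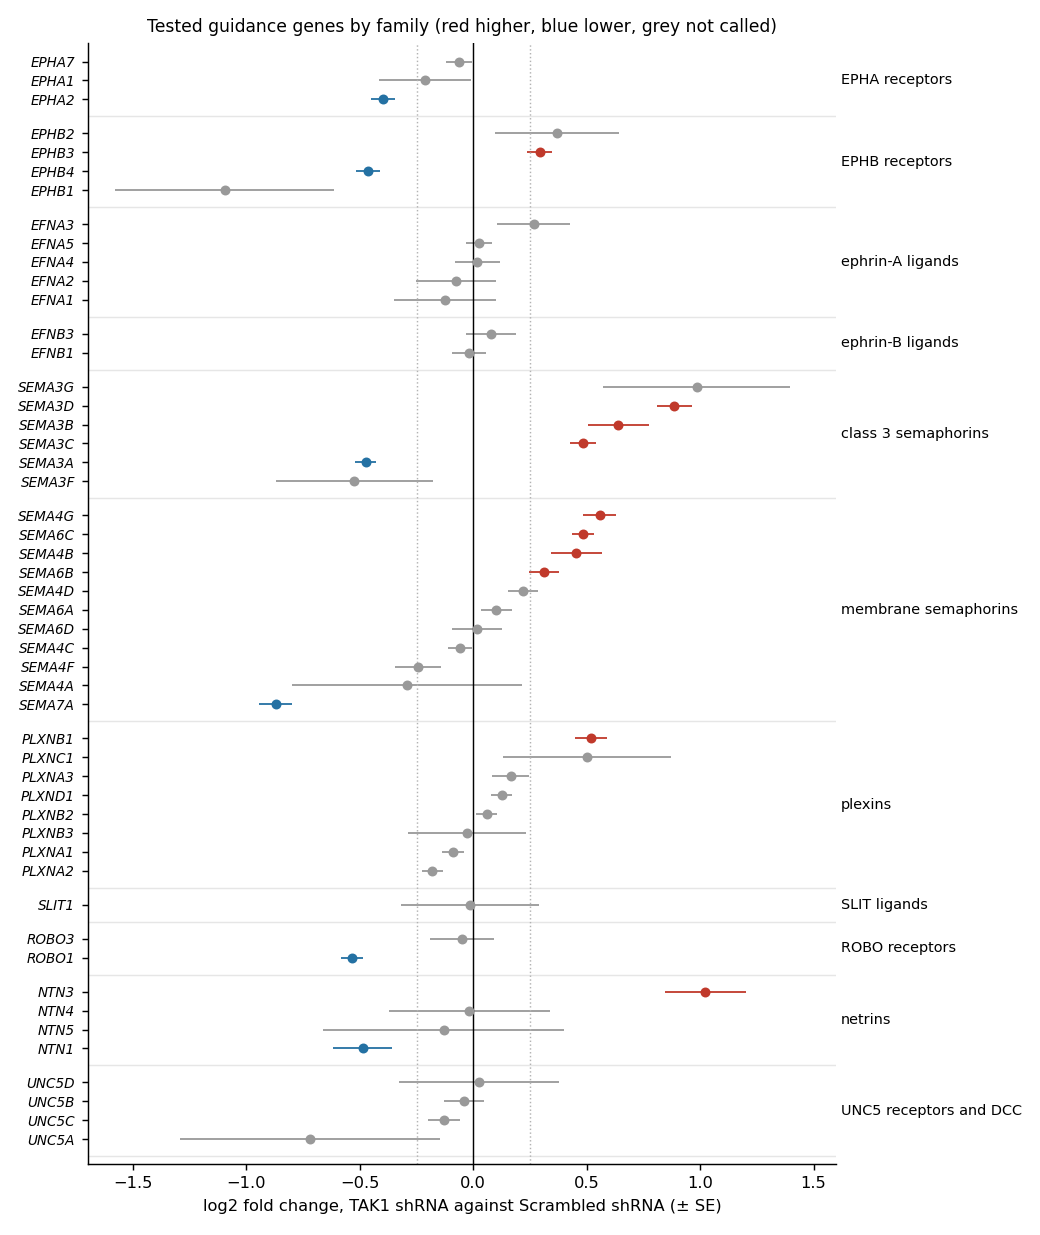
The log2 fold change of each tested guidance gene (horizontal axis, TAK1 shRNA over Scrambled shRNA, n = 3 each) is plotted by family, with bars of 1 standard error from edgeR and called genes in colour. The ephrins lie between -0.12 and 0.27, whereas class 3 semaphorins and netrins hold genes on both sides, from SEMA3A at -0.47 and NTN1 at -0.49 to SEMA3D at 0.89 and NTN3 at 1.02.

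To compare genes with each other, CPM was divided by the length in kb of the Ensembl canonical transcript. On this scale SEMA6B stood first in control cells, at 123 CPM per kb, followed by 46.7 for SEMA4C, 44.9 for PLXND1, 43.2 for EPHA2, 43.1 for SEMA6C, 41.3 for PLXNB2 and 36.1 CPM per kb for EPHB4. The samples of SEMA4C (47.5, 45.6 and 47.0) overlapped those of PLXND1 (46.6, 43.8 and 44.4), which overlapped those of EPHA2 (43.8, 44.2 and 41.7) and SEMA6C (44.1, 43.3 and 41.9), so the order of these genes is not resolved. Counting the union of all annotated exons as length kept the leading gene of 10 of the 11 families, and among plexins it put PLXNB2 ahead of PLXND1.

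Ligands and receptors were unevenly present. Semaphorins summed to 293 ± 10.7 CPM per kb in control cells (mean ± SD, n = 3), plexins to 142 ± 3.15, EPH receptors to 115 ± 3.98 and ephrins to 42.3 ± 1.20. ROBO receptors reached 24.2 ± 0.341 CPM per kb, while the SLIT ligands together had 0.179 ± 0.0284 CPM per kb. Exons of SLIT1 overlap ARHGAP19-SLIT1 on the same strand, and those of EFNA4 and EFNA3 overlap EFNA4-EFNA3, so their counts are less certain. Netrins summed to 3.08 ± 0.376 CPM per kb and the UNC5 receptors with DCC to 7.68 ± 0.338 CPM per kb. In knockdown cells the semaphorin sum was 340.0 ± 26.7 CPM per kb and the EPH receptor sum 99.0 ± 5.45, with no overlap of the 3 samples of each group in either case. Within the semaphorin sum SEMA6B alone went from a mean of 123 to 153 CPM per kb. The ROBO sum (17.1 ± 0.410 in knockdown cells) and the netrin sum (4.10 ± 0.486) were separate between the groups as well.

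**Figure D2:**
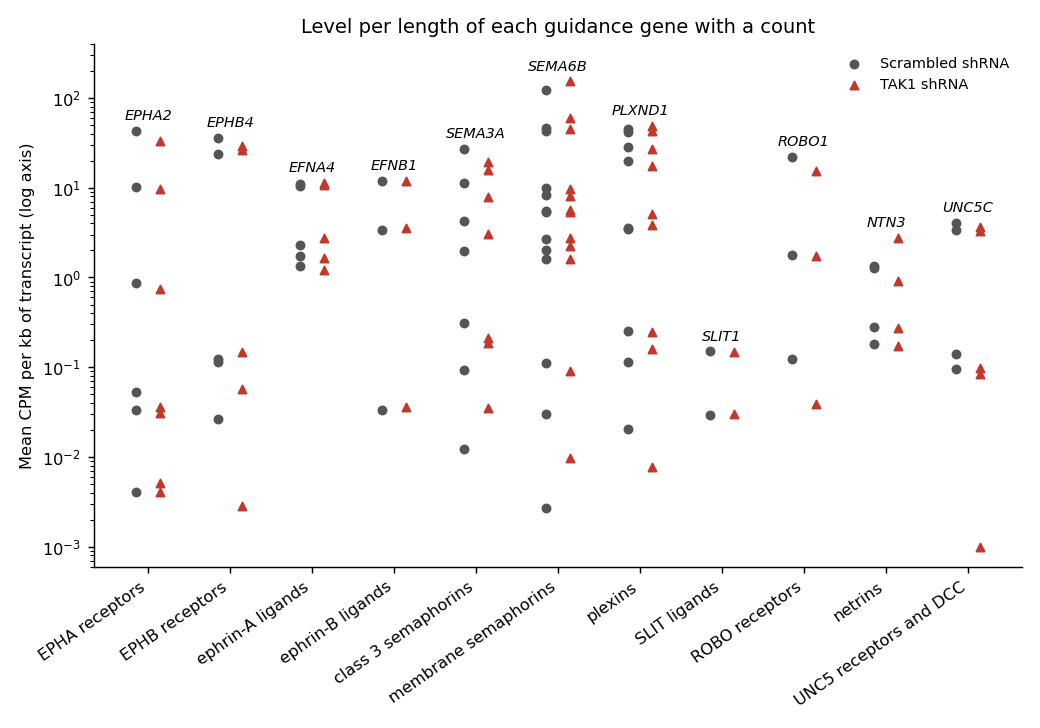
Mean level of each guidance gene with a count (vertical log axis, CPM per kb of transcript, n = 3 per group) is shown by family, with circles for Scrambled shRNA, triangles for TAK1 shRNA and the gene highest in control cells named. SEMA6B lies highest, at 123 and 153 CPM per kb, and SLIT1 is the higher of the 2 SLIT genes with a count while ROBO1 lies at 22.3 and 15.4.

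The 17 genes that were not tested had at most 20 counts in a library, the highest count of ROBO4. EPHA6, EPHA10, ROBO2 and SLIT3 had 0 counts in all 6 libraries, which allows up to 0.0849 to 0.106 CPM per library (3 counts, covering counting error alone). The other 13 were EPHA3, EPHA4, EPHA5, EPHA8, EPHB6, EFNB2, SEMA3E, SEMA5A, SEMA5B, SLIT2, PLXNA4, DCC and ROBO4. Between groups, 4 of the 17 did not overlap (EPHA4, ROBO4, SEMA3E and PLXNA4), beside 43.9% of all tested genes. The share over all genes that were not tested was not computed, and at such low counts no change is read from this. ROBO4, an endothelial relative of ROBO1, had 0.703, 0.603 and 0.292 CPM in control cells against 0.274, 0.198 and 0.0303 CPM after TAK1 knockdown. With no filter on low counts it was lower (log2 fold change -1.67, SE 0.62, adjusted p = 0.0419), as it was without Scrambled shRNA replicate 3 (-1.96), TAK1 shRNA replicate 1 (-2.15) or TAK1 shRNA replicate 2 (-1.83), and without TAK1 shRNA replicate 3 it was tested and not called (-1.18, adjusted p = 0.149). The other 16 gave no call where an alternative tested them. Of the tested genes, 43 of 50 had at least 1 CPM in control cells.

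Short promoter sequences are shown for the called genes with a match, before a start, to letters bound by factors that act below TAK1 or in muscle, 1 match per gene and motif. The letters searched were those of AP-1 (TGANTCA), TEAD (GGAATG, or CATTCC on the other strand), a muscle-type E-box (CAGCTG) and NF-kB (GGG and TTTCC with 2 free bases between them). The RefSeq windows (GRCh38.p14, 250 bases before to 50 after a start) were searched on both strands, none of the 4 letter strings contains another, and capitals mark the match.
EPHB3 E-box, chr3:184561629-184561658, plus strand: ccaactgaactcCAGCTGagtgctctcgag
SEMA3B TEAD, chr3:50267475-50267504, plus strand: ctcccttgtgccCATTCCactcccgcctgg
SEMA3B E-box, chr3:50267503-50267532, plus strand: ggctgccgtctcCAGCTGgtcccggctgcc
PLXNB1 E-box, chr3:48429345-48429372, minus strand: gtctccgggtaaCAGCTGcggctccgcc
PLXNB1 TEAD, chr3:48429565-48429594, minus strand: gcggggctGGAATGcggggtcccgggcggt
SEMA4B E-box, chr15:90191894-90191920, plus strand: cacagggtgtgcCAGCTGgtgtcgctt
SEMA7A E-box, chr15:74434127-74434156, minus strand: ctggcttgtccgCAGCTGggctttccccgt
EPHA2 TEAD, chr1:16156125-16156154, minus strand: cccctttaaagaCATTCCtgagggcgggcg

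These matches lie 144 (EPHB3), 165 and 137 (SEMA3B), 16 and 242 (PLXNB1), 15 (SEMA4B), 186 (SEMA7A) and 73 bases (EPHA2) before a start. The table held 90 promoters of 58 guidance genes. It held none for the called genes SEMA6B, NTN3, SEMA3A and NTN1, so these were not searched. An E-box stood in 17 of them (18.9%), beside 17.9% of all 35116 promoters, in 6 of 17 promoters of 8 higher genes, in 1 of 6 promoters of 4 lower genes and in 4 of 44 promoters of 30 genes tested but not called, and the rest in genes that were not tested. The TEAD letters stood in 10 of the 90 (11.1%), beside 14.0% of all promoters. These were 3 of 17 promoters of higher genes, 1 of 6 of lower genes and 6 of 44 of genes tested but not called. AP-1 stood in 1 of the 90 (1.11%), beside 7.71%, and NF-kB in 0, beside 1.91%. Promoters of 1 gene overlap or share sequence, guidance promoters had a median GC content of 65.2% against 58.7% for all promoters, and a match of letters is a description and not a binding site.

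Among class 3 semaphorins the most abundant gene fell while the next ones rose. SEMA3A, the founding collapsin that repels axons through NRP1 and A-type plexins, had 216, 219 and 219.9 CPM in control cells against 150.4, 161 and 159.9 CPM after TAK1 knockdown. All knockdown samples were below all control samples (log2 fold change -0.47, SE 0.046, adjusted p = 1.26e-08). SEMA3C (chromosome 7, 80742538 to 80922359), which binds both neuropilins and directs cells of the outflow tract of the heart, had 55.7, 56.0 and 54.8 CPM with scrambled shRNA and 72.3, 80.7 and 80.0 CPM with TAK1 shRNA, and the 2 groups were again separate, in the opposite direction (log2 fold change 0.48, SE 0.057, adjusted p = 3.16e-07).

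SEMA3D, a class 3 semaphorin that acts through NRP1, had 25.1, 31.7 and 29.1 CPM in control cells against 48.3, 56.1 and 54.5 CPM after TAK1 knockdown. The lowest knockdown sample lay above the highest control sample, and the level was 1.85 times that of control (log2 fold change 0.89, SE 0.078, adjusted p = 2.23e-09). SEMA3B, a secreted semaphorin described as a tumour suppressor, was scarcer, at 6.05, 7.11 and 5.71 CPM in control cells against 11.7, 9.74 and 8.03 CPM after TAK1 knockdown. SEMA3B was higher in every knockdown sample (log2 fold change 0.64, SE 0.14, adjusted p = 0.000630). Exons of SEMA3B overlap those of SEMA3B-AS1 on the opposite strand, and without a stated strand setting their reads cannot be told apart. They also overlap MIR6872 on the same strand, so the count of SEMA3B is less certain.

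The remaining class 3 genes were near the detection limit. SEMA3F had 1.41, 0.762 and 1.17 CPM with scrambled shRNA and 0.821, 0.793 and 0.697 CPM with TAK1 shRNA and a log2 fold change of -0.52 (adjusted p = 0.269). SEMA3G had 0.598, 0.572 and 0.227 CPM in control cells against 0.992, 1.08 and 0.697 CPM after TAK1 knockdown, with no overlap of the groups and a log2 fold change of 0.98 (adjusted p = 0.0691). As a family, class 3 semaphorins summed to 44.9 ± 0.830 CPM per kb in control and 46.6 ± 1.82 CPM per kb in knockdown cells. Within that sum SEMA3A made up 59.9% in control and 41.5% in knockdown cells, SEMA3C 25.4% and 34.2%, and SEMA3D 9.41% and 16.8%.

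SEMA3A and SEMA3D are neighbours on chromosome 7 and moved in opposite directions. SEMA3A (ENSG00000075213.11) lies on the minus strand of chromosome 7, 83955777 to 84492724 (GRCh38, GENCODE 44, as for the other positions), and SEMA3D (ENSG00000153993.14) on the same strand at chromosome 7, 84995553 to 85187056, a gap of 503 kb. SEMA3E, 307 kb from SEMA3A on its other side, was not tested. SEMA3B (chromosome 3, 50267558 to 50277546) lies 78.5 kb from SEMA3F (chromosome 3, 50155045 to 50189075), of which SEMA3B was called. The adjacent ephrin genes EFNA4, EFNA3 and EFNA1 on chromosome 1, with gaps of 9.28 kb and 40.3 kb, gave no call.

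Among membrane semaphorins 4 of 11 tested genes were higher (36.4%) and 1 was lower (9.09%), beside 11.8% and 11.3% of all tested genes. SEMA6B (chromosome 19, 4542593 to 4581776), a transmembrane semaphorin and ligand of A-type plexins, had 515, 468 and 441 CPM in control cells against 681, 530.3 and 559.7 CPM after TAK1 knockdown. The first knockdown sample was the highest, and all 3 stood above the control samples (log2 fold change 0.31, SE 0.066, adjusted p = 0.000585). Without TAK1 shRNA replicate 1 the log2 fold change was 0.20, under the fold threshold, and DESeq2 gave an adjusted p of 0.0551. SEMA6C (chromosome 1, 151131685 to 151146631), a transmembrane semaphorin of the same class, had 171, 168 and 162 CPM with scrambled shRNA and 249.9, 230.0 and 220.3 CPM with TAK1 shRNA, higher in each knockdown sample (log2 fold change 0.48, SE 0.050, adjusted p = 3.35e-08).

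SEMA7A (chromosome 15, 74409289 to 74433958), the semaphorin with a lipid anchor, which binds integrins and PLXNC1, had 33.9, 33.2 and 33.1 CPM in control cells against 18.6, 17.9 and 18.3 CPM after TAK1 knockdown. The values within each group were close, and the level in knockdown cells was 0.547 of control (log2 fold change -0.87, SE 0.072, adjusted p = 7.61e-10). SEMA4G (chromosome 10, 100969504 to 100985871), a transmembrane class 4 semaphorin, had 24.4, 24.4 and 24.7 CPM with scrambled shRNA and 38.6, 36.5 and 33.2 CPM with TAK1 shRNA (log2 fold change 0.56, SE 0.072, adjusted p = 1.31e-06). Some of its exons overlap MRPL43, a mitochondrial ribosomal protein gene, so its count is less certain. SEMA4B (chromosome 15, 90160604 to 90229679), another class 4 semaphorin, had 7.88, 7.59 and 7.56 CPM in control cells against 11.7, 9.65 and 10.2 CPM after TAK1 knockdown and was higher in each knockdown sample (log2 fold change 0.45, SE 0.11, adjusted p = 0.00255).

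The other membrane semaphorins were not called. SEMA4C, the ligand of PLXNB2, had 173, 167 and 172 CPM with scrambled shRNA and 179, 154 and 159 CPM with TAK1 shRNA, and its groups overlapped (log2 fold change -0.059, adjusted p = 0.428). SEMA4D, the ligand of PLXNB1, had 35.7, 37.1 and 39.6 CPM in control cells against 42.2, 44.9 and 43.8 CPM after TAK1 knockdown, which passed the adjusted p but not the fold threshold (log2 fold change 0.22, SE 0.065, adjusted p = 0.0101). It passed both with library size alone (0.27) and without Scrambled shRNA replicate 3 (0.26), and passed neither without Scrambled shRNA replicate 1 (0.19, adjusted p = 0.0643) or Scrambled shRNA replicate 2 (0.21, adjusted p = 0.0530). SEMA4F, SEMA6A, SEMA6D and SEMA4A were not called, with log2 fold changes of -0.24, 0.10, 0.018 and -0.29. SEMA4F was called without TAK1 shRNA replicate 1 (-0.32, adjusted p = 0.0215).

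**Figure D3:**
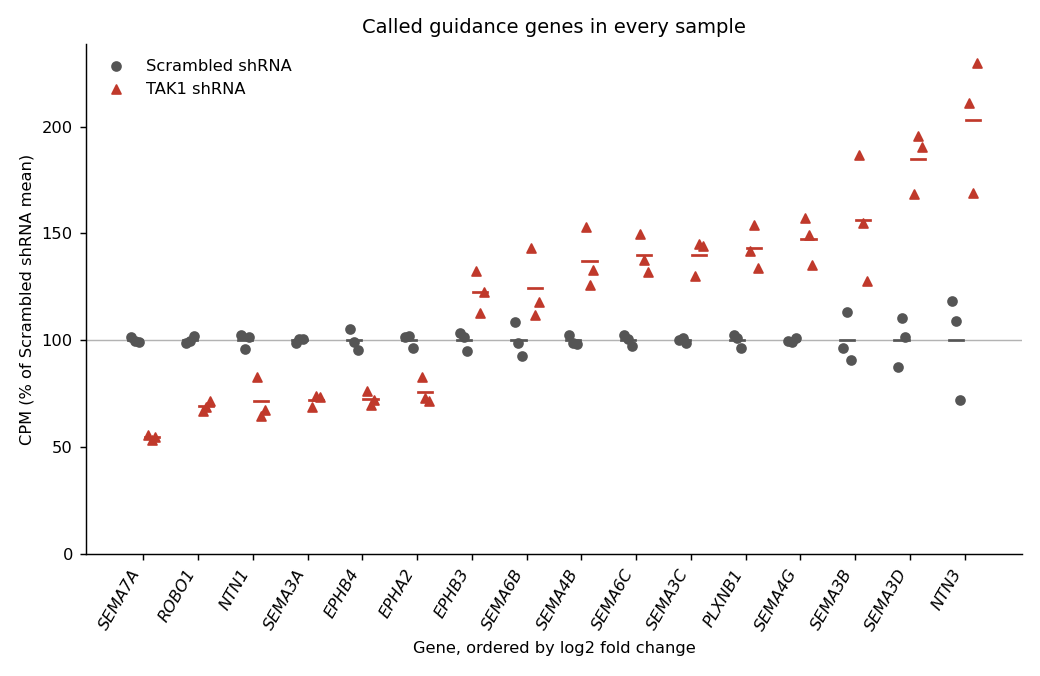
Each called guidance gene is shown in every sample as CPM in percent of its control mean (vertical axis), with genes ordered by log2 fold change, circles for Scrambled shRNA and triangles for TAK1 shRNA (n = 3 each). Groups are separate for all 16 genes, which were called from these same values, with horizontal marks at the group means, SEMA7A lowest and NTN3 highest.

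Plexins, the semaphorin receptors, gave 1 call among 8 genes tested. PLXND1, the receptor of SEMA3E, was the most abundant per transcript length, at 322, 303 and 307 CPM in control cells against 359.8, 328 and 329 CPM after TAK1 knockdown (log2 fold change 0.13, SE 0.047, adjusted p = 0.0398), under the fold threshold. PLXND1 also missed the adjusted p with DESeq2 (0.0511), with DESeq2 size factors in edgeR (0.0527) and without Scrambled shRNA replicate 2 or 3 or TAK1 shRNA replicate 1, the last with a log2 fold change of 0.082. PLXNA2, which serves class 3 and class 6 semaphorins, had 235, 227 and 225 CPM with scrambled shRNA and 206, 197 and 203 CPM with TAK1 shRNA and was slightly lower in every knockdown sample (log2 fold change -0.18, SE 0.045, adjusted p = 0.00283), also under the threshold. PLXNB1, the SEMA4D receptor that couples to MET and ERBB2, was the plexin called.

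PLXNB1 (chromosome 3, 48403854 to 48430086) had 26.0, 25.7 and 24.5 CPM in control cells against 35.9, 39.1 and 34.0 CPM after TAK1 knockdown, with all knockdown samples above control (log2 fold change 0.52, SE 0.072, adjusted p = 3.39e-06). It remained a minor plexin per length, at 3.54 and 5.06 CPM per kb beside 41.3 and 43.0 for PLXNB2. PLXNA1 had 268, 269.7 and 264 CPM with scrambled shRNA and 268, 241 and 245 CPM with TAK1 shRNA (log2 fold change -0.089, adjusted p = 0.156), and PLXNB2 had a log2 fold change of 0.059 (adjusted p = 0.374). For PLXNA3 the knockdown samples spread from 35.2 to 48.2 CPM around the control values of 37.0 to 38.4 CPM, and PLXNA3 was called without TAK1 shRNA replicate 3 (0.27, adjusted p = 0.00543). PLXNC1, the SEMA7A receptor, had 1.13, 0.826 and 0.616 CPM in control cells against 0.752, 1.90 and 0.939 CPM after TAK1 knockdown, with overlapping groups. Neither it nor PLXNB3, also below 2 CPM, was called, and the plexin sum was 142 ± 3.15 and 146 ± 6.64 CPM per kb.

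The neuropilins that carry class 3 signals were scarce beside the plexins. NRP2, which binds SEMA3C and SEMA3F, had 17.5, 18.7 and 18.9 CPM in control cells against 11.1, 8.24 and 10.1 CPM after TAK1 knockdown. Every knockdown sample lay below every control sample (log2 fold change -0.91, SE 0.10, adjusted p = 1.55e-07), so SEMA3C and NRP2 moved in opposite directions. NRP1, the SEMA3A receptor, had 9.53, 9.08 and 8.34 CPM with scrambled shRNA and 5.81, 7.11 and 8.88 CPM with TAK1 shRNA, and its groups overlapped (log2 fold change -0.30, SE 0.13, adjusted p = 0.0860). Without TAK1 shRNA replicate 3 NRP1 passed both thresholds (-0.48, adjusted p = 0.00886), and without TAK1 shRNA replicate 1 its log2 fold change was -0.17 (adjusted p = 0.357). Per length the control levels were 1.59 CPM per kb for NRP1 and 2.77 for NRP2, beside 26.9 for SEMA3A and 28.7 for PLXNA1.

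EPH receptors were dominated by EPHA2, EPHB4 and EPHB3. EPHA2 (chromosome 1, 16124337 to 16156069), a kinase abundant in many carcinomas and activated by ephrin-A1, had 173, 174 and 165 CPM in control cells against 141, 125 and 122 CPM after TAK1 knockdown. The groups were separate (log2 fold change -0.40, SE 0.053, adjusted p = 2.11e-06), and EPHA2 made up 79.5% of the EPHA sum in control cells. EPHA7, the next of the family, had 65.4, 69.3 and 68.4 CPM with scrambled shRNA and 61.3, 67.0 and 66.1 CPM with TAK1 shRNA with overlapping groups (log2 fold change -0.062, adjusted p = 0.439). EPHA1 was scarce and not called.

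EPHB4 (chromosome 7, 100802565 to 100827523), the ephrin-B2 receptor of veins, had 165, 156 and 149.9 CPM in control cells against 119, 109 and 113 CPM after TAK1 knockdown, lower in each knockdown sample (log2 fold change -0.46, SE 0.051, adjusted p = 1.12e-07). Its exons overlap those of SLC12A9 on the opposite strand. EPHB3 (chromosome 3, 184561785 to 184582408), a receptor of B-type ephrins that positions cells of the intestinal crypt, had 104, 102 and 96.1 CPM with scrambled shRNA and 133, 114 and 124 CPM with TAK1 shRNA, higher in each knockdown sample (log2 fold change 0.29, SE 0.056, adjusted p = 0.000224). Without TAK1 shRNA replicate 1 its log2 fold change was 0.24, under the threshold.

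The order of the EPHB pair changed between the groups. In control cells EPHB4 stood at 38.0, 35.8 and 34.4 CPM per kb and EPHB3 at 24.6, 24.2 and 22.7, with EPHB4 above in every sample. In knockdown cells EPHB4 stood at 27.4, 25.1 and 25.9 and EPHB3 at 31.5, 26.9 and 29.2 CPM per kb, with EPHB3 above within each sample, though the ranges of the 2 genes overlapped. EPHB4 thus went from 59.9% to 47.1% of the EPHB sum. EPHB1 reached at most 0.730 CPM and EPHB2 1.85 CPM, with log2 fold changes of -1.10 (adjusted p = 0.0848) and 0.37 (adjusted p = 0.328).

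None of the 7 tested ephrins, the ligands of these receptors, passed the test. EFNB1 had 41.9, 37.8 and 38.4 CPM in control cells against 43.5, 35.7 and 37.4 CPM after TAK1 knockdown, with overlapping groups (log2 fold change -0.019, adjusted p = 0.876). EFNA4 had 14.9, 13.0 and 13.8 CPM with scrambled shRNA and 15.7, 14.1 and 12.5 CPM with TAK1 shRNA, and EFNA5 had 57.1, 56.0 and 56.9 CPM in control cells against 60.5, 55.6 and 56.9 CPM after TAK1 knockdown. Per length the 2 genes overlapped in control cells (11.9, 10.3 and 11.0 CPM per kb for EFNA4 and 10.6, 10.4 and 10.6 for EFNA5), so which is the higher is not resolved. Both overlapped between groups, with log2 fold changes of 0.018 and 0.025. EFNA1, a ligand of EPHA2, had 2.07, 2.29 and 1.85 CPM with scrambled shRNA and 1.71, 2.07 and 1.91 CPM with TAK1 shRNA. Per length EFNA1 stood at 1.33 CPM per kb in control cells, below the values of EFNA4 and EFNA5 given above, beside 43.2 for EPHA2. EFNB2, the ligand of EPHB4, was not tested and had 0.176, 0.191 and 0.130 CPM in control cells against 0.103, 0.226 and 0.212 CPM after TAK1 knockdown, that is 0.0331 CPM per kb in control cells beside 36.1 for EPHB4. Over the 7 tested ephrins the log2 fold changes lay between -0.12 and 0.27.

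ROBO1 (chromosome 3, 78597239 to 79767998), the main SLIT receptor of these cells, had 152, 154 and 157 CPM in control cells against 103, 106 and 111 CPM after TAK1 knockdown. The groups were far apart relative to their spread (log2 fold change -0.53, SE 0.048, adjusted p = 3.76e-09), and ROBO1 made up 92.1% of the ROBO sum in control cells. ROBO3, a divergent family member, had 8.55, 7.37 and 8.27 CPM with scrambled shRNA and 7.90, 9.60 and 5.82 CPM with TAK1 shRNA (log2 fold change -0.049, adjusted p = 0.831). SLIT1 was the one SLIT gene tested and had 1.34, 1.27 and 0.973 CPM in control cells against 0.992, 1.47 and 1.06 CPM after TAK1 knockdown, with overlapping groups (log2 fold change -0.014, adjusted p = 0.980). SLIT2 was not tested and had 0.317, 0.159 and 0.227 CPM with scrambled shRNA and 0.171, 0.311 and 0.242 CPM with TAK1 shRNA, that is 0.0291 CPM per kb in control cells, beside 22.3 CPM per kb for ROBO1.

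The netrins gave a call in each direction. NTN3 (chromosome 16, 2471297 to 2474145), a secreted netrin, had 3.52, 3.24 and 2.14 CPM in control cells against 6.26, 5.01 and 6.82 CPM after TAK1 knockdown, the largest log2 fold change of the called guidance genes and the lowest level among them in control cells (log2 fold change 1.02, SE 0.18, adjusted p = 6.57e-05). NTN1 (chromosome 17, 9021510 to 9244000), the classical attractant of commissural axons, had 7.74, 7.24 and 7.69 CPM with scrambled shRNA and 6.26, 4.87 and 5.09 CPM with TAK1 shRNA, lower in each knockdown sample (log2 fold change -0.49, SE 0.13, adjusted p = 0.00531). Per length the pair was close in control cells, at 1.36 CPM per kb for NTN3 and 1.26 for NTN1, and NTN3 made up 67.2% of the netrin sum in knockdown cells. NTN4 and NTN5 were at or below 1.44 CPM and were not called.

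None of the netrin receptors tested was called. UNC5C had 39.6, 38.4 and 38.4 CPM in control cells against 33.9, 33.0 and 39.3 CPM after TAK1 knockdown, with overlapping groups (log2 fold change -0.13, adjusted p = 0.172), and UNC5B had 24.1, 24.3 and 21.9 CPM with scrambled shRNA and 26.3, 20.7 and 21.5 CPM with TAK1 shRNA (log2 fold change -0.041, adjusted p = 0.767). DCC had a count in 1 library alone, at 0.0303 CPM. Neogenin (NEO1), the DCC relative, had 13.8, 13.6 and 13.5 CPM in control cells against 13.7, 14.4 and 14.2 CPM after TAK1 knockdown, that is 1.92 CPM per kb in control and 1.98 in knockdown cells.

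Other genes of these pathways were drawn from a pair of lists. Of 25 co-receptors and related ligands 18 were tested, 2 were higher and 4 lower, that is 11.1% and 22.2%, beside 11.8% and 11.3% of all tested genes, with a median log2 fold change of -0.033. The higher genes were GPC1, a glypican that binds SLIT (0.36), and ERBB2, which couples to B-type plexins (0.33). The lower genes were NRP2, L1CAM, a partner of NRP1 in SEMA3A signalling (-0.60, adjusted p = 1.86e-09), FLRT1, a ligand of UNC5 receptors (-0.59, adjusted p = 0.000128), and the sheddase ADAM17 (-0.27, adjusted p = 0.000200). ADAM17 fell short of the fold threshold with library size alone (-0.22) and without Scrambled shRNA replicate 3 or TAK1 shRNA replicate 1 (-0.24 in both). Exons of ADAM17 (IAH1), ERBB2 (PGAP3 and MIEN1) and L1CAM (L1CAM-AS1) overlap those of other named genes, so their counts are less certain.

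Of 65 intracellular signal transducers 60 were tested, 10 were higher and 7 lower, that is 16.7% and 11.7%, beside 11.8% and 11.3% of all tested genes. With adjusted p alone 39 (65%) passed, beside 33.3% of all tested genes, and the median log2 fold change over the 60 was 0.087. Abundant genes among them passed with small changes, such as TRIO (mean 246 CPM in control cells, log2 fold change -0.11). The median of all tested genes was 19.9 CPM in control cells, and the part of abundance in the 65% was not tested. The exchange factors VAV3, recruited by EPH receptors, and FARP2, which acts below plexin-A, had log2 fold changes of -0.81 (adjusted p = 3.89e-10) and -0.70 (adjusted p = 1.25e-10), and the adaptor NCK1 had -0.48 (adjusted p = 4.29e-05). SRGAP1 and SRGAP3, GTPase activating proteins that bind ROBO, rose, by 0.58 (adjusted p = 0.00134) and 1.04 (adjusted p = 0.0134). SHTN1, a clutch protein that acts below netrin receptors, rose as well (0.45, adjusted p = 9.78e-06). Exons of SRGAP3 (THUMPD3 and SRGAP3-AS1), FARP2 (STK25), NCK1 (IL20RB and NCK1-DT) and SHTN1 (ENO4) overlap those of other named genes, so their counts are less certain. SRGAP3 was near 1 CPM and was no longer called without Scrambled shRNA replicate 3 (0.74, adjusted p = 0.0942) or TAK1 shRNA replicate 3 (0.93, adjusted p = 0.0618).

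Across the alternatives that kept the fold threshold, 15 to 18 guidance genes were called, and 14 of the 16 stayed called in all 6 fits that left out a library, the exceptions being EPHB3 and SEMA6B. A fold threshold of 0.5 left 7 genes: SEMA7A, ROBO1, SEMA3B, SEMA3D, SEMA4G, PLXNB1 and NTN3.

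**Figure D4:**
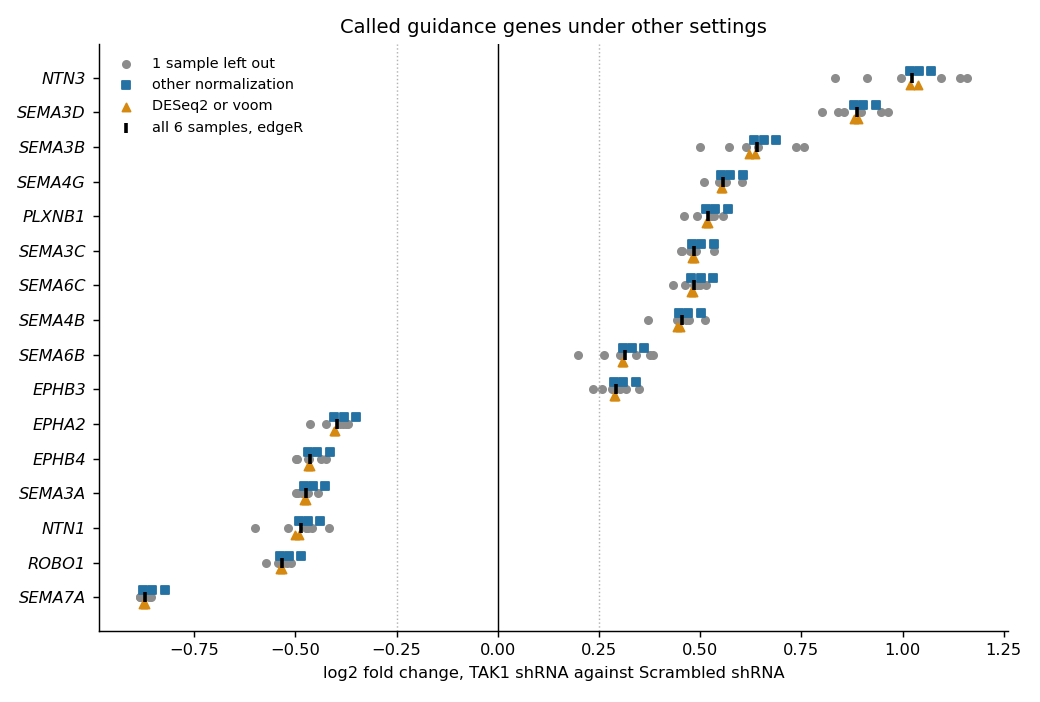
The log2 fold change of each called guidance gene (horizontal axis, TAK1 shRNA over Scrambled shRNA) is plotted for edgeR on all 6 samples (black ticks), with 1 sample left out (grey circles), under 3 other normalizations (blue squares) and with DESeq2 or limma voom (orange triangles), and dotted lines mark the fold threshold of 0.25. Every value keeps its sign, and SEMA6B (0.20) and EPHB3 (0.24) cross the threshold when TAK1 shRNA replicate 1 is left out.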

How the data were processed

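Poly(A) RNA of RD cells was sequenced by the authors, 3 samples per group. The authors converted reads with CASAVA and aligned them with STAR to GRCh38, and deposited raw counts per gene (whole numbers, not normalized). The counter, its strand setting and the annotation release are not given in the sources used here. Libraries held 28839898 to 34469323 counts, at least 99.9% of them on tested genes.

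The 6 samples were grouped by their labels. Genes that passed filterByExpr were TMM-scaled and tested with edgeR 4.0.16 (R 4.3.3) by the quasi-likelihood test, with Benjamini-Hochberg adjustment over all 15935 genes, as TAK1 shRNA over Scrambled shRNA. A gene was called at an adjusted p under 0.05 and a log2 fold change of 0.25 or more in size. CPM are counts per TMM-scaled library of tested genes; values per kb use GENCODE 44 transcript lengths. Errors are SD (n = 3) for levels and SE for log2 fold changes. Tested on simulated data of 15730 genes for this comparison, edgeR recovered 92 of 100 genes changed by 1 and 72 of 100 changed by 0.5 on the log2 scale, with 2 false calls. The simulation gave all genes the same dispersion and changed 200 of them, so these rates need not hold for the real data.

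Per-sample values are given for called genes, for the gene highest per length in each family, and for main partners of called genes, and for some other members of these families; from the other lists the 6 called genes with the largest change and both neuropilins are named. The members, lists and motifs were chosen with earlier results of these data known. Other normalizations, filters, thresholds, DESeq2 1.42.0, limma voom (limma 3.58.1), a replicate block and each library left out were also run. Exon-union length was added after seeing the data. An exact two-sided permutation test of 3 against 3 samples cannot go below 0.1, the value it gave for MAP3K7. Replicates differed by more than sampling noise (chi-square per degree of freedom 2.86 to 8.67). A further marker list is not reported here.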

Additional observations from a re-analysis of the deposited data

How the results depend on the processing

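For MAP3K7 and the single named genes, most of them called, no direction reversed under any of the 16 alternatives. The settings with no fold threshold or one of 0.5 reuse the main fit, so no reversal was possible there. The directions of the other genes were not followed. Leaving out each library in turn gave 8 to 11 higher and 6 to 8 lower guidance genes, 1582 to 1810 higher and 1675 to 1931 lower genes in all, 2 to 3 higher and 3 to 5 lower co-receptors, 6 to 13 higher and 6 to 9 lower signal transducers, and a MAP3K7 log2 fold change between -1.36 and -1.28. Without a fold threshold 2734 genes were lower, and 4 co-receptors were higher, with 22 signal transducers higher and 17 lower. With a threshold of 0.5, 735 genes were higher and 680 lower, 5 guidance genes higher and 2 lower, 0 co-receptors higher, and 2 signal transducers in each direction. Library size alone gave 4 lower signal transducers. With no fold threshold or one of 0.5 the counts differ by construction, and for library size alone the cause was not tested. Whether replicate numbers pair the samples was not settled. Deviations of same-numbered samples correlated at 0.016 to 0.037 and those of other numbers at -0.052 to 0.019. Most samples, but not every one, correlated best with their own number. The replicate block gave 11 higher guidance genes (SEMA3G added), 6 lower, and 1942 higher and 1848 lower genes in all, and changed the call of no other guidance gene. Over all alternatives and single named genes, the call or its absence (adjusted p and fold threshold together) was kept 484 times, lost 22 times and gained 6 times. These counts include the settings with another fold threshold, where the log2 fold changes are those of the main fit and only the threshold differs. Depth limits the 17 guidance genes that were not tested and those near 1 CPM.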
